A study of Mus musculus with 8 samples.

Results

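The 10 homeostatic astrocyte genes described here were chosen by name as genes of astrocyte transport and metabolism: Slc1a2, Slc1a3, Glul, Aldoc, Gja1, Gjb6, Aldh1l1, Fgfr3, Slc4a4 and Sox9. All 10 were listed among the 22430 genes of the count table and all 10 passed the low-count filter that left 16730 genes for testing. Poly(A) RNA was sequenced from brain hemispheres (tissue labelled whole brain) of 4 male C57Bl/6JRj mice of 6 months (6m) and 4 of 24 months (24m), 1 library per animal. The mice carried no labelled allele and received no labelled treatment, so age was the sole labelled difference between the groups. The homogenate holds every cell type of the hemisphere, and in such bulk RNA a smaller number of cells of a type and less RNA per cell cannot be told apart.

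Astrocytes take up glutamate released at synapses, convert it to glutamine, buffer potassium and bicarbonate, and are joined to each other by gap junctions. Slc1a2 (GLT-1) and Slc1a3 (GLAST) encode the glial glutamate transporters and Glul encodes glutamine synthetase. Gja1 (connexin 43) and Gjb6 (connexin 30) encode the gap junction proteins, Slc4a4 a sodium bicarbonate cotransporter, Aldoc a brain aldolase of glycolysis and Aldh1l1 an enzyme of folate metabolism. Fgfr3 encodes a receptor for fibroblast growth factors and Sox9 a transcription factor of the astrocyte lineage. The levels of these genes are a common readout of the supportive state of astrocytes, as opposed to the reactive state marked by Gfap and Vim.

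Library totals ran from 63460940 to 103462414 counts, the deepest being 24m replicate 1. That library stood apart from its age group, with a mean Spearman correlation across genes of 0.979 with the other 24m libraries and 0.978 with the 6m libraries, against 0.986 to 0.992 with the own age group in the other 24m libraries. Results are therefore also given without it. The mitochondrially encoded genes took 5.26 to 6.52% of counts in the 6m libraries and 3.18 to 3.69% in the 24m libraries. Together, the 10 astrocyte genes took 0.353 to 0.3999% of counts at 6m and 0.442 to 0.472% at 24m. In every library most of these counts came from Aldoc and Glul. All 10 genes were detected in all 8 libraries, with mean levels of single genes from the 52.2 percentile of all genes tested (Sox9) to the 99.8 percentile (Aldoc).

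Promoter sequence is shown for the glutamate transporter pair and the connexin pair, because the balance within both pairs moved with age, as described further on. The windows are the 250 bases upstream of an annotated RefSeq start on assembly GRCm38.p6 (the counts were made on GRCm39), read 5′ to 3′ on the strand of the gene. Some of the 10 genes have more than 1 such start, so a window need not lie at the first start of its gene. They lie at chr2:102706188-102706437 (plus strand) for Slc1a2, chr15:8710808-8711057 (minus strand) for Slc1a3, chr10:56377050-56377299 (plus strand) for Gja1 and chr14:57133612-57133861 (minus strand) for Gjb6. Capitals mark a SOX core (ACAAT) or a core of nuclear factor I sites (TTGGC) on either strand.
Slc1a2: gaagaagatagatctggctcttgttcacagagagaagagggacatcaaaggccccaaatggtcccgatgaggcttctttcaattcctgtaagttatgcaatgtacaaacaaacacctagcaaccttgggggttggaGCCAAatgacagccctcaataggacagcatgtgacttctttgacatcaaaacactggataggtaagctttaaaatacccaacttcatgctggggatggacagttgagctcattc
Slc1a3: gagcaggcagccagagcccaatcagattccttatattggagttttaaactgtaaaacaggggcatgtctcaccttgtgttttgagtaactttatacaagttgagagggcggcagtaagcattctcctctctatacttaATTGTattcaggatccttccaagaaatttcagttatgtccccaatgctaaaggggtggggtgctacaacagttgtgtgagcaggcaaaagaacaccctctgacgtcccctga
Gja1: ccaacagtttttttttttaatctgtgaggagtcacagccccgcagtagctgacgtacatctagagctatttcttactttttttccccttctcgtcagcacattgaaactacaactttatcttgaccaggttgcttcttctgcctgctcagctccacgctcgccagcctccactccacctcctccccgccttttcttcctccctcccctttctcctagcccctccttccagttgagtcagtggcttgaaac
Gjb6: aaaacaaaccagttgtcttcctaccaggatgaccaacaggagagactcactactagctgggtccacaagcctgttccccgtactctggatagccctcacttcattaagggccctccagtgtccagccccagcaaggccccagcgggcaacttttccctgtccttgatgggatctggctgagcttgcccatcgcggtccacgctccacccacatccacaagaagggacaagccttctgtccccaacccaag
The Slc1a2 window held 1 TTGGC and the Slc1a3 window 1 ACAAT, the latter 112 bases before the annotated start. Neither string was found in the Gja1 or the Gjb6 window. Only the Slc1a3 window among these 4 also held TATAAA, and it held CCAAT 3 times. The base composition was 44.8% G or C in both transporter windows, 50% in Gja1 and 56.8% in Gjb6, against a median of 52.4% over 32851 mouse windows of the same length. Windows were found for 9 of the 10 genes, 12 windows in all. With both strands searched, ACAAT was present in 2 of these 12 windows and in 27.7% of all windows, TTGGC in 5 and in 41.5%, and the RBPJ string TGGGAA in 4 and in 21.6%. CCAAT, whose reverse complement can overlap TTGGC, was present in 5 of the 12 and in 33.8% of all windows, TATAAA in 1 and in 12.4%, GGGCGG in 7 and in 32.7%, and the E-box CANNTG in 8 and in 66.2%. A match is a description of the letters in the window and no evidence that a factor binds there.

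Across the 10 genes, 6 were called higher in the aged brain, 0 lower and 4 were not called. A call required an edgeR adjusted p of at most 0.05 together with a log2 fold change (log2FC) of at least 0.58 in either direction. By the same rule 25.3% of all genes tested were called higher at 24m and 18.3% lower (4237 and 3058 genes). That balance depends on the scaling, with 5449 higher and 1746 lower under library totals alone and 3573 higher and 3891 lower with DESeq2 on quantile-normalized counts. Slc1a3, Slc4a4, Gja1, Slc1a2, Sox9 and Fgfr3 rose, in this order of size, with log2FC from 1.89 to 0.59. Glul met the adjusted p while staying under the fold threshold, so that 7 of 10 passed the adjusted p alone, against 62.6% of all genes in either direction. Gjb6, Aldh1l1 and Aldoc passed neither. Of these 3, Aldh1l1 alone had an unadjusted p under 0.05, and DESeq2 and limma-voom also called 0 of the 10 genes lower. In 7 of the 10 genes every 24m library lay above every 6m library, which held for 28.4% of all genes tested, and in 0 of the 10 did every 24m library lie below, against 26.8%. The median log2FC over the 10 genes was 0.69, from -0.29 to 1.89, beside a median of -0.0034 over all genes tested. Scaling to library totals alone, in place of TMM factors, moved that overall median to 0.21 and the median of the 10 genes to 0.92.

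**Figure D1:**
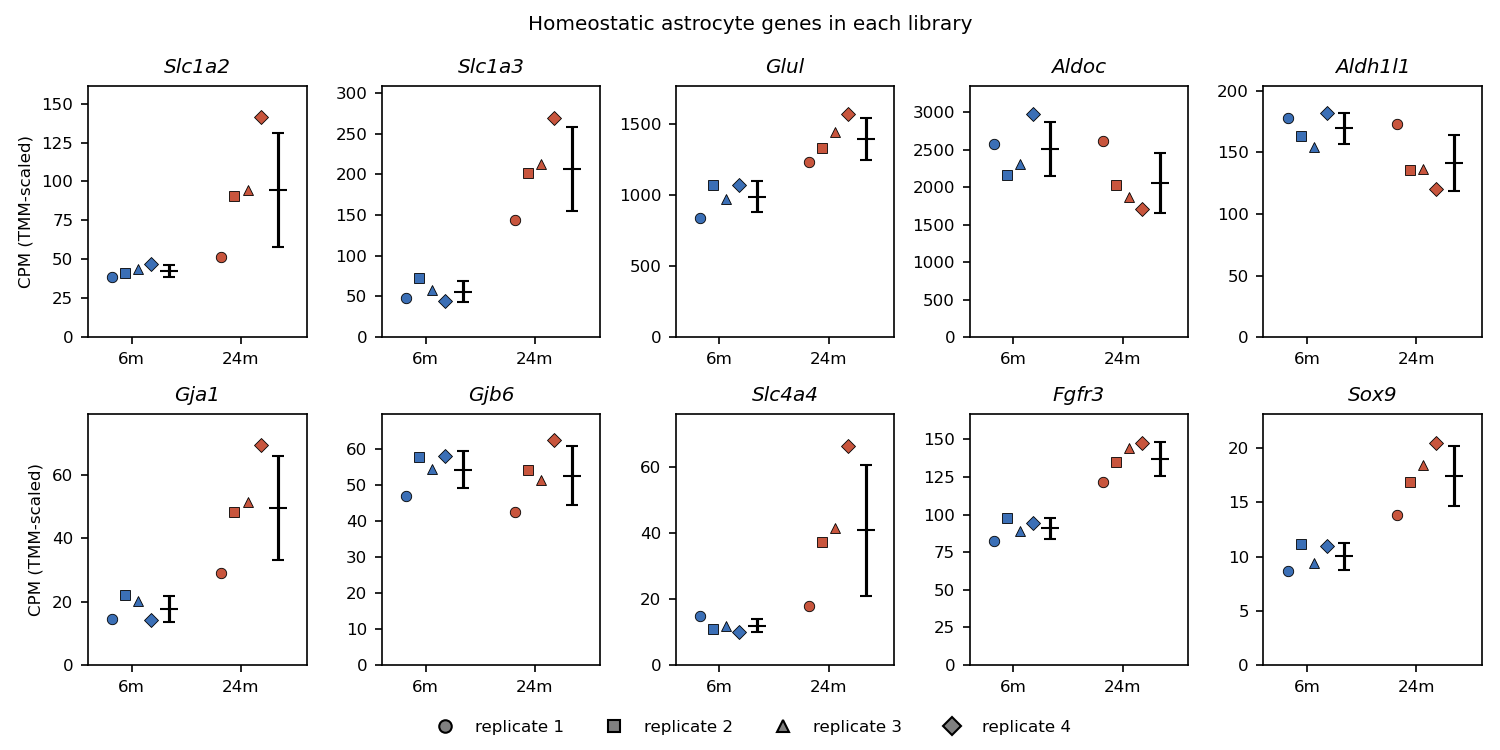
TMM-scaled counts per 1e+06 (CPM, vertical axis) of each gene in the 4 libraries of 6m (blue) and the 4 of 24m (red), with 1 marker shape per replicate number and the mean ± SD beside the points. Slc1a3, Slc1a2, Gja1 and Slc4a4 are higher in every 24m library than in any 6m library, the ages overlap in Aldoc, Aldh1l1 and Gjb6, and 24m replicate 1 is the lowest 24m library in 8 of the 10 panels.

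Glutamate uptake was compared through both transporter genes. Slc1a3 (ENSMUSG00000005360, chr15:8663604-8741595 on GRCm39, minus strand) stood at 48.5, 73.3, 58.0 and 43.8 CPM in 6m replicates 1 to 4 and at 143.7, 201.4, 213 and 269.2 CPM in 24m replicates 1 to 4. The ages did not overlap, and the lowest aged library lay well above the highest young library. The mean rose 3.70-fold, from 55.9 ± 13.0 to 207 ± 51.4 CPM (SD, n = 4 each), a log2FC of 1.89 ± 0.21 (SE, adjusted p = 0.000106, edgeR), the largest among the 10 genes.

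Slc1a2 (ENSMUSG00000005089, chr2:102488574-102621129, plus strand), the transporter that carries most of the uptake in the adult forebrain, stood at 38.4, 40.9, 43.7 and 46.8 CPM at 6m and at 51.4, 90.4, 94.7 and 141.5 CPM at 24m. The groups did not overlap, but 24m replicate 1 lay close to the young libraries and replicate 4 far above the rest. Slc1a2 rose 2.23-fold, from 42.5 ± 3.62 to 94.5 ± 36.9 CPM, with a log2FC of 1.15 ± 0.25 (adjusted p = 0.00282, edgeR). The spread was unequal between the ages, the coefficient of variation being 8.52% at 6m and 39.0% at 24m. Without 24m replicate 1 the log2FC was 1.37 in Slc1a2 and 2.04 in Slc1a3, and without 24m replicate 4 it was 0.89 and 1.74.

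Glul (ENSMUSG00000026473, chr1:153775690-153785469, plus strand), whose enzyme makes glutamine from the glutamate taken up, was among the most abundant transcripts, at 841, 1070, 973.8 and 1074 CPM at 6m and 1232, 1335, 1446 and 1571 CPM at 24m. All aged libraries lay above all young ones. The mean went from 989.6 ± 109 to 1396 ± 146 CPM, 1.41-fold, with a log2FC of 0.50 ± 0.11 (adjusted p = 0.00408, edgeR) and a 95% interval of 0.24 to 0.75 that includes the threshold of 0.58. Glul gained a call in 5 of 24 alternatives, among them library totals alone (0.72) and DESeq2 on quantile-normalized counts (0.80).

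Ratios of counts within a library do not depend on library scaling, and were used to ask whether partner genes moved by the same amount. The ratio of Slc1a2 to Slc1a3 was 0.792, 0.559, 0.754 and 1.07 in the 6m libraries and 0.358, 0.449, 0.445 and 0.526 in the 24m libraries. Every aged library had a lower ratio than any young library, a difference in mean log2 ratio of -0.81 (two-sided exact permutation over 4 and 4 libraries, p = 0.0286, the smallest this design can give, adjusted over 3 ratios to 0.0429). Thus both transporters rose, and Slc1a3 rose more than Slc1a2. With 3 aged libraries the adjusted p no longer passed. Without 24m replicate 1 the difference was -0.71 with an adjusted p of 0.0571 (exact permutation). Without replicate 2, 3 or 4 it was -0.82, -0.82 and -0.90 with an adjusted p of 0.0857 (exact permutation). The ratio of Slc1a2 to Glul was 0.046, 0.038, 0.045 and 0.044 at 6m and 0.042, 0.068, 0.065 and 0.090 at 24m, where replicate 1 fell among the young libraries. The difference of 0.57 in log2 did not pass (exact permutation p = 0.114, two-sided), whereas without that replicate it was 0.78 (adjusted p = 0.0429, exact permutation).

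Gap junction genes showed a contrast between partners. Gja1 (ENSMUSG00000050953, chr10:56253241-56278609, plus strand) stood at 14.5, 22.0, 20.2 and 14.1 CPM at 6m and 29.0, 48.3, 51.5 and 69.3 CPM at 24m, with no overlap. It rose 2.80-fold, from 17.7 ± 4.00 to 49.5 ± 16.5 CPM, a log2FC of 1.48 ± 0.25 (adjusted p = 0.000841, edgeR).

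Gjb6 (ENSMUSG00000040055, chr14:57360757-57371087, minus strand), the other astrocyte connexin, stood at 47.1, 57.9, 54.4 and 58.2 CPM at 6m and 42.7, 54.2, 51.4 and 62.6 CPM at 24m, so that the aged libraries spanned the whole young range. The log2FC was -0.05 ± 0.12 (adjusted p = 0.763, edgeR), with a 95% interval of -0.32 to 0.23, and its sign turned with the scaling, being 0.18 under library totals alone. Changes of the size of that of Gja1 lie outside the interval.

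The ratio of Gja1 to Gjb6 was accordingly 0.308, 0.38, 0.371 and 0.242 at 6m against 0.679, 0.890, 1.00 and 1.11 at 24m. All aged libraries lay above all young ones, with a difference of 1.5 in mean log2 ratio (two-sided exact permutation over 4 and 4 libraries, p = 0.0286, adjusted p = 0.0429). Without 24m replicate 2, 3 or 4 the difference was 1.51, 1.45 and 1.40 and the adjusted p 0.0857 (exact permutation). Without replicate 1 it was 1.64 with an adjusted p of 0.0429 (exact permutation). Counts of Gja1 thus moved from below those of Gjb6 in every young library to at or above them in 24m replicates 3 and 4.

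**Figure D2:**
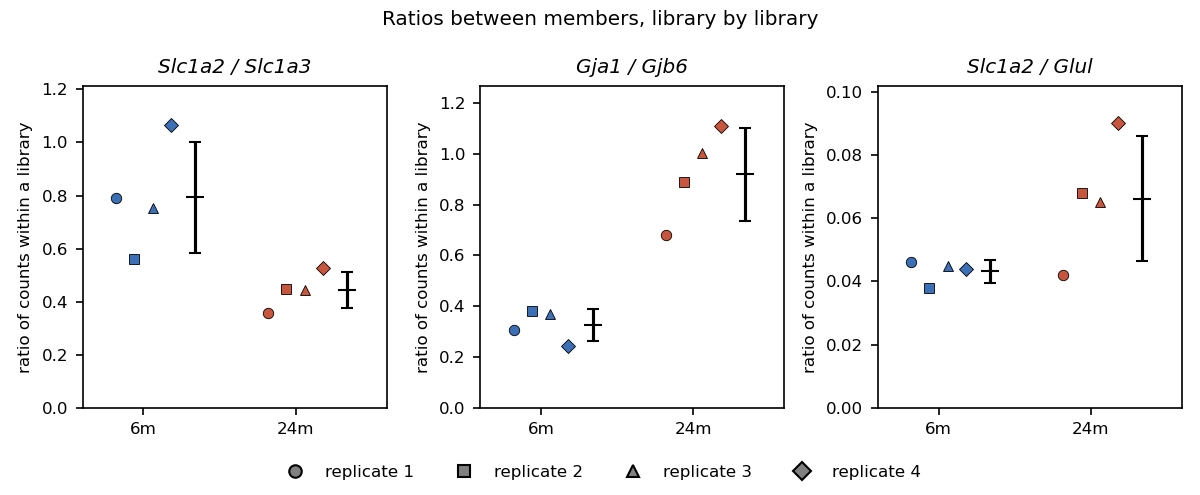
Ratios of raw counts between partner genes within each library (vertical axes), 6m in blue and 24m in red, with mean ± SD. The Slc1a2 to Slc1a3 ratio is lower and the Gja1 to Gjb6 ratio higher in all 24m libraries than in any 6m library, whereas the Slc1a2 to Glul ratio overlaps because 24m replicate 1, at 0.042, lies within the young range.

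Bicarbonate transport was represented by Slc4a4 (ENSMUSG00000060961, chr5:89034345-89387514, plus strand), at 14.8, 10.98, 11.9 and 10.1 CPM at 6m and 18.0, 37.4, 41.6 and 66.5 CPM at 24m. The groups did not overlap, although 24m replicate 1 was nearer to the young libraries than to the other aged ones. Slc4a4 rose 3.42-fold, from 11.95 ± 2.06 to 40.9 ± 19.95 CPM, a log2FC of 1.77 ± 0.33 (adjusted p = 0.00132, edgeR). Without 24m replicate 1 the log2FC was 2.03 in Slc4a4 and 1.68 in Gja1, and without 24m replicate 4 it was 1.43 and 1.28.

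Aldoc and Aldh1l1, of glycolysis and folate metabolism, were not called. Aldoc (ENSMUSG00000017390, chr11:78213619-78218889, plus strand), the most abundant of the 10 genes in counts, stood at 2577, 2162, 2313 and 2976 CPM at 6m and 2618, 2032, 1873 and 1704 CPM at 24m, with 24m replicate 1 inside the young range. The mean was 2507 ± 356 at 6m and 2057 ± 398 CPM at 24m, a log2FC of -0.29 ± 0.15 (adjusted p = 0.129, edgeR, 95% interval -0.63 to 0.06), and the sign turned to 0.14 with DESeq2 on quantile-normalized counts. Without 24m replicate 1 it was -0.41, which met the adjusted p (0.00622) but stayed under the fold threshold.

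Aldh1l1 (ENSMUSG00000030088, chr6:90463409-90577185, plus strand), a widely used astrocyte marker, stood at 178.4, 163.6, 154.5 and 181.7 CPM at 6m and 173.2, 135.9, 136.3 and 120.5 CPM at 24m. Only 24m replicate 1 reached the young range. The log2FC was -0.26 ± 0.12 (adjusted p = 0.0723, edgeR, 95% interval -0.52 to 0.00), and -0.36 without that replicate, where it met the adjusted p (0.0016) but stayed under the fold threshold. Intervals of both enzymes exclude a rise of the size called in the transporters.

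Of the regulators, Fgfr3 (ENSMUSG00000054252, chr5:33879018-33894412, plus strand) had the smallest standard error of the 10 genes, at 82.1, 97.5, 89.1 and 94.2 CPM at 6m and 121.7, 134.6, 143.9 and 147.6 CPM at 24m. It rose 1.51-fold, from 90.7 ± 6.73 to 137 ± 11.5 CPM, a log2FC of 0.59 ± 0.09 (adjusted p = 0.000472, edgeR). This value is just above the fold threshold, and the call was lost in 7 of 24 alternatives, in each of which the adjusted p still passed. Among these were fits without 6m replicate 1 (0.55), without 24m replicate 3 (0.57) and without 24m replicate 4 (0.56).

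Sox9 (ENSMUSG00000000567, chr11:112673009-112678586, plus strand) had the lowest mean CPM of the 10 genes at both ages, with libraries overlapping those of Slc4a4, at 8.64, 11.2, 9.36 and 10.9 CPM at 6m and 13.9, 16.9, 18.4 and 20.5 CPM at 24m. No aged library overlapped the young ones. Sox9 rose 1.74-fold, from 10.03 ± 1.23 to 17.4 ± 2.79 CPM, a log2FC of 0.79 ± 0.14 (adjusted p = 0.00109, edgeR). With DESeq2 on quantile-normalized counts it was 0.54, under the fold threshold.

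**Figure D3:**
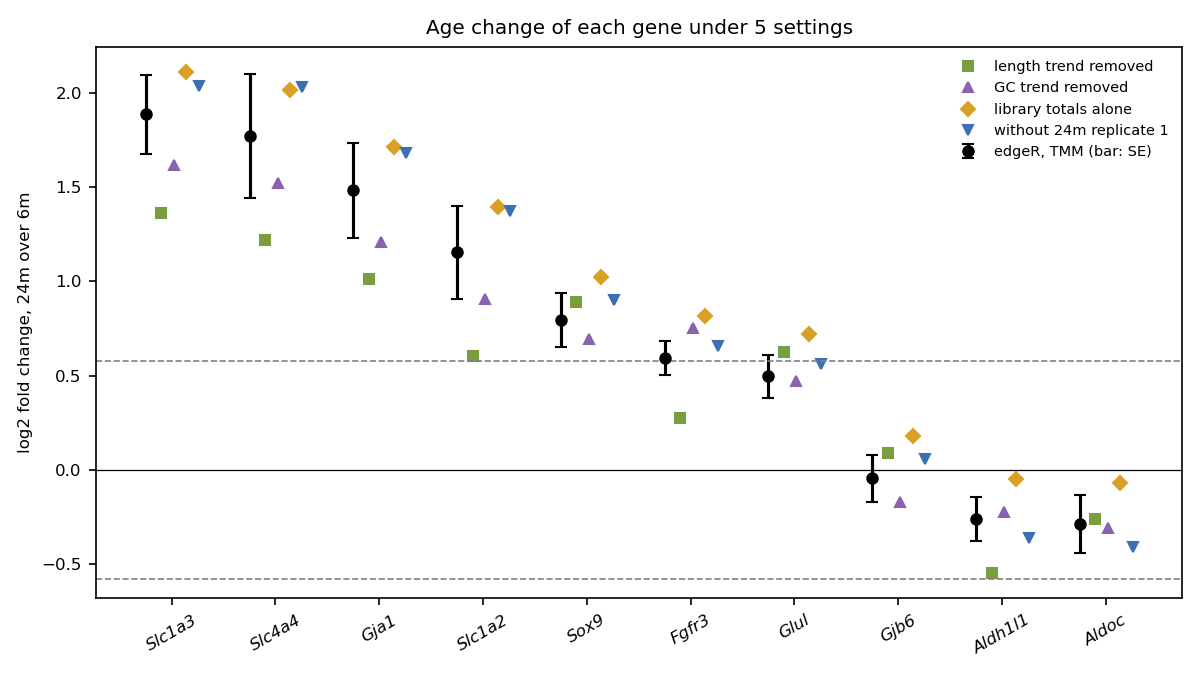
Log2 fold change of 24m over 6m (vertical axis) for each gene in the edgeR fit with TMM factors (black, bar: SE) and under 4 alternatives (coloured), with dashed lines at the fold threshold of 0.58 on both sides. Slc1a3, Slc4a4, Gja1 and Slc1a2 stay above the threshold under all 5 settings shown, Fgfr3 drops to 0.28 once the length trend is removed, and Gjb6, Aldh1l1 and Aldoc stay below it.

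Levels between genes were compared per kilobase of the canonical transcript (CPM per kb). At 6m the order was Aldoc at 899.9 ± 128, Glul at 580.8 ± 64.2, Aldh1l1 at 40.4 ± 3.04, Gjb6 at 25.6 ± 2.44, Fgfr3 at 21.5 ± 1.59, Slc1a3 at 13.3 ± 3.10, Gja1 at 3.76 ± 0.85, Slc1a2 at 3.53 ± 0.301, Sox9 at 2.40 ± 0.294 and Slc4a4 at 1.46 ± 0.252 CPM per kb (SD, n = 4). Among these neighbours, the libraries of Gjb6 and Fgfr3 overlapped, as did those of Gja1 and Slc1a2. At 24m Glul stood at 819.4 ± 85.4 and Aldoc at 738.2 ± 143 CPM per kb, with overlapping libraries, and Slc1a3 at 49.3 ± 12.3 CPM per kb had the third highest mean, with libraries that overlapped those of Aldh1l1 at 33.7 ± 5.33, itself overlapping Fgfr3 at 32.5 ± 2.74. Slc4a4 at 5.002 ± 2.44 and Sox9 at 4.17 ± 0.667 CPM per kb were the lowest in the aged libraries and overlapped. The order depends on the transcript length used: per kilobase of the union of all annotated exons, Aldoc was highest at both ages and Slc1a3 ranked 5 at 24m.

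Over all genes tested, log2FC rose with exonic length, the union of all annotated exons (correlation 0.38 with log2 length). The 10 genes cover both ends of the length range. Of 1836 tested genes with more than 12000 bp of exonic sequence, 47.4% passed as higher and 6.75% as lower, the median log2FC being 0.53. Of 5126 genes of up to 4000 bp, 8.1% passed as higher and 34.3% as lower, the median being -0.41. Slc1a3 (14595 bp), Slc1a2 (13994 bp), Slc4a4 (13694 bp) and Gja1 (12302 bp), which had the 4 largest changes, are the 4 genes in the longest class, whereas Glul (3948 bp) and Gjb6 (3919 bp) are in the shortest. The classes depend on the length measure. By canonical transcript, Slc1a3, Gja1, Sox9, Fgfr3 and Aldh1l1 are close in length, at 4195, 4700, 4176, 4220 and 4202 bp. Their log2FC were 1.89, 1.48, 0.79, 0.59 and -0.26. With the length trend removed by an offset in each library, Slc1a3 had a log2FC of 1.36, Slc4a4 1.22, Gja1 1.01, Slc1a2 0.61 and Sox9 0.89, and these 5 calls were kept. In that fit Fgfr3 was at 0.28 and lost its call, Glul was at 0.62 and gained one (adjusted p = 0.00173, edgeR), and Aldh1l1, at -0.55, met the adjusted p (0.0108) while staying short of the fold threshold. The number called higher was 6 of 10 with and without the trend. The ratio differences in that fit were -0.79 for Slc1a2 to Slc1a3 and 0.93 for Gja1 to Gjb6, with an adjusted p of 0.0429 in both (exact permutation), and -0.04 for Slc1a2 to Glul. With a trend over GC content removed, the same 6 genes were called, with log2FC from 1.62 in Slc1a3 to 0.69 in Sox9.

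**Figure D4:**
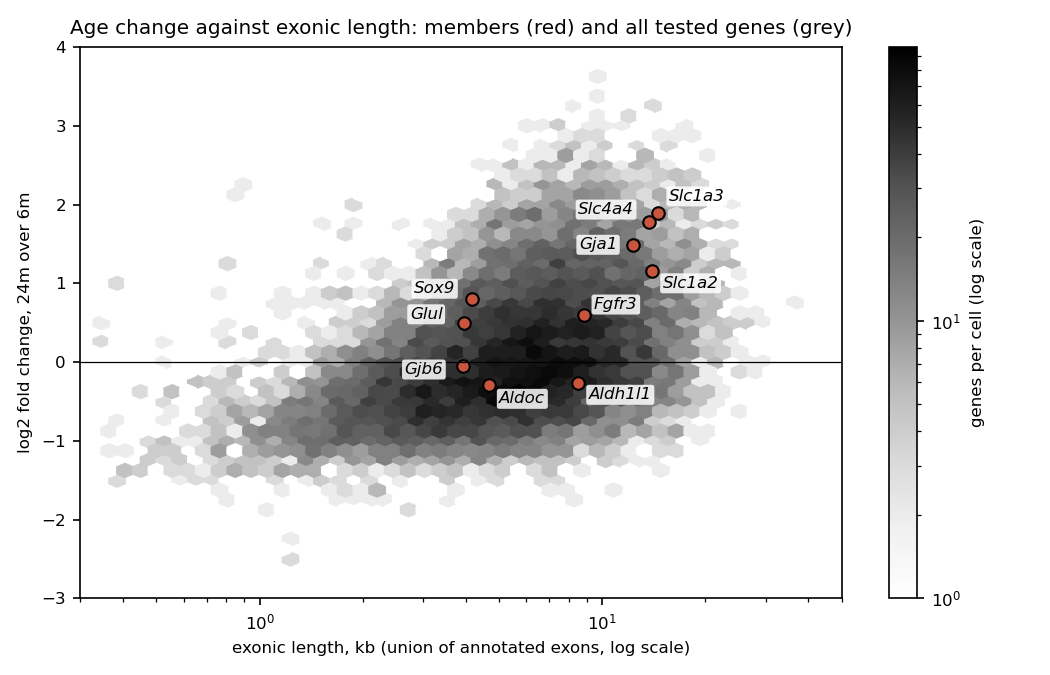
Log2 fold change of 24m over 6m (vertical axis) against exonic length in kb (horizontal log axis) for all tested genes with an annotated length (grey hexagons, darker with more genes) and the 10 astrocyte genes (red points). The 4 genes longer than 12000 bp have the 4 largest changes, and Sox9 and Glul lie above most genes of their length.

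Genes of the same pathways were read from the same fit, against the 25.3% called higher and 18.3% called lower over all genes. Genes were named at a mean of at least 1 CPM over the 8 libraries, which Pdk4, Aldh1l2, Spry4, Bmpr1b and Chrdl1 reached only through their 24m levels, so that their large changes follow in part from the choice. In the glutamate and glutamine list, 8 of 15 genes were called higher and 1 was called lower, the median log2FC being 0.89. Slc38a1, a neutral amino acid transporter that carries glutamine, rose by 1.95 ± 0.22 in log2. Among the calls with the smallest values were Slc1a4, a neutral amino acid transporter, at 0.89 ± 0.17 and the glutamine transporter Slc38a5, which fell by 0.90 on the log2 scale, from 2.40 ± 0.476 to 1.28 ± 0.172 CPM.

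In the potassium, water and junction list, 7 of 16 genes were called higher and 0 lower (median 0.38). Kcnj10, the inward rectifier channel Kir4.1 of astrocytes, rose by 3.01 ± 0.31 in log2, from 4.36 ± 0.662 to 35.03 ± 15.2 CPM, and was singled out by the study on these same samples, so it is no independent evidence. Dag1, the dystroglycan that anchors channels in perivascular endfeet, rose by 2.14 ± 0.21, and the smallest calls were the sodium pump subunit Atp1b2 (0.70 ± 0.09) and the channel subunit Kcnj16 (0.82 ± 0.22). In the bicarbonate and acid list, 5 of 14 were called higher and 4 lower (median 0.22). Slc4a10, a neuronal bicarbonate transporter, rose by 2.02 ± 0.35 and Car10, a carbonic anhydrase-related protein, by 0.75 ± 0.17, while the bicarbonate cotransporter Slc4a7 fell by 0.86 and the carbonic anhydrase Car4 by 0.67 in log2. The counts were 6 higher and 1 lower under library totals alone, and 1 higher and 3 lower with the length trend removed, where 3696 and 2700 of all 16730 genes were called.

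Lists were also read around Aldoc and Aldh1l1. For sugar, lactate and glycogen, 7 of 16 genes were called higher and 0 lower (median 0.32), while the summed level was 7230 to 8210 CPM at 6m and 5430 to 7460 CPM at 24m. Most of that sum came from the aldolase gene Aldoa, at 4912 ± 264 CPM at 6m and 3956 ± 601 CPM at 24m. Its log2FC was -0.31 ± 0.12 (adjusted p = 0.0464, edgeR), under the fold threshold. The abundant lactate dehydrogenase genes Ldha and Ldhb, chosen after their values were seen, had log2FC of -0.47 ± 0.11 and -0.46 ± 0.12 (adjusted p = 0.00392 and 0.00779, edgeR), under the fold threshold, with every 24m library below every 6m library. The pyruvate dehydrogenase kinase Pdk4 rose by 1.79 ± 0.25, from 0.765 ± 0.193 to 2.67 ± 0.695 CPM, and Pfkfb3, which drives glycolysis, by 1.55 ± 0.20, and the smallest calls were the glycogen phosphorylase Pygb (0.58 ± 0.08) and the glycogen-targeting subunit Ppp1r3c (0.69 ± 0.09). For folate metabolism, 2 of 15 were called higher and 1 lower (median -0.16): Aldh1l2, the mitochondrial counterpart of Aldh1l1, rose by 1.28 ± 0.24, from 0.612 ± 0.188 to 1.49 ± 0.222 CPM, methionine synthase Mtr rose by 0.93 ± 0.24, and Mthfs fell by 1.15 in log2.

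Around Fgfr3, 8 of 17 genes of FGF signalling were called higher and 0 lower (median 0.52). Spry4 and Spred1, feedback inhibitors of the pathway, rose by 2.27 ± 0.24 and 1.62 ± 0.27 in log2, Spry4 from 0.692 ± 0.149 to 3.36 ± 0.837 CPM, and the smallest calls were the phosphatase Dusp6 (0.65 ± 0.20) and the receptor Fgfr2 (0.88 ± 0.17). Around Sox9, 6 of 16 glial transcription factors rose and 2 fell (median 0.09). Nfia, which acts with Sox9 in astrocyte differentiation, rose by 1.72 ± 0.30 and the RNA-binding regulator Zfp36l1 by 1.27 ± 0.26, while Zbtb20 fell by 1.30 and Hes1, a Notch target, by 0.88 in log2.

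Of 40 further astrocyte markers, 9 were called higher and 5 lower (median 0.03), both shares being below the 25.3% and 18.3% over all genes tested. The counts were 9 higher and 9 lower without 24m replicate 1, where 4653 and 3671 of 16794 genes were called, and 10 higher and 2 lower under library totals alone, where 5449 and 1746 of 16730 were. Bmpr1b, a BMP receptor, rose by 2.37 ± 0.30 in log2, from 0.536 ± 0.111 to 2.79 ± 1.13 CPM, and the secreted BMP antagonist Chrdl1 by 1.73 ± 0.34, from 0.698 ± 0.353 to 2.32 ± 0.604 CPM, whereas the metallothionein Mt3 fell by 1.38, from 1764 ± 170 to 677 ± 266 CPM, and the calcium-binding protein S100b by 1.29, from 301.1 ± 60.8 to 123.1 ± 27.3 CPM. Of 17 tested genes of the reactive state, 11 were called higher and 0 lower (median 1.07). Among those called, Cd44, Osmr, Ggta1, S1pr3 and Cd109 had 6m means below 1 CPM, and the rest were above it. Gfap rose from 189.8 ± 19.2 to 519.9 ± 104 CPM, a log2FC of 1.45 ± 0.14 (adjusted p = 6.49e-05, edgeR), and Vim stood at 58.7 ± 7.95 and 85.8 ± 6.81 CPM (0.55 ± 0.11, adjusted p = 0.0018), under the fold threshold. Both were named by the study on these samples. The summed level of the reactive genes ran from 972 to 1480 CPM in the 24m libraries and was highest in 24m replicate 1. The same held for most other lists described here and for the 10 homeostatic genes, whose sum came mostly from Aldoc and Glul. Slc1a2, Slc1a3 and Gja1 themselves were at their lowest 24m level in that library.

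**Figure D5:**
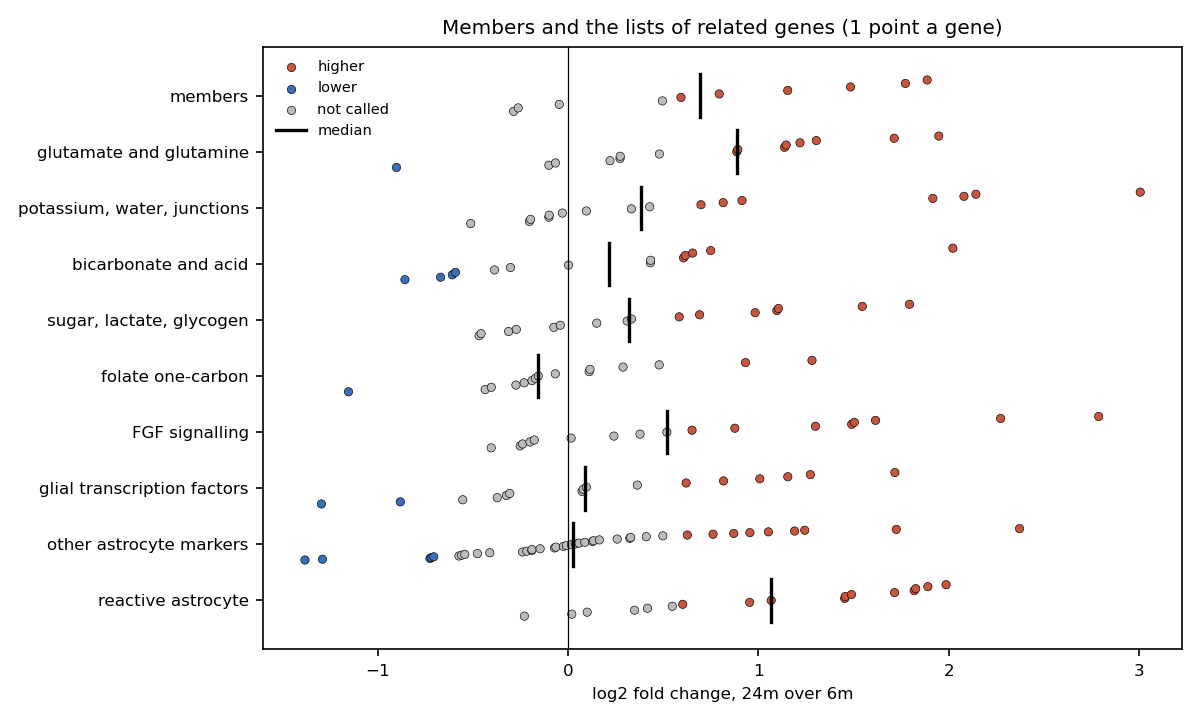
Log2 fold change of 24m over 6m (horizontal axis) of each gene (1 point) in the 10 homeostatic astrocyte genes and 9 related lists, coloured by call, with the list median as a black bar. The medians run from -0.16 in folate metabolism to 1.07 in the reactive list, with 0.69 for the 10 genes in the top row.

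Markers of other cell types of the hemisphere were read beside the astrocyte genes, and their part in the changes of those genes was not tested. Against the 25.3% and 18.3% over all genes, the share called higher was larger in 2 of these 9 lists (oligodendrocyte precursor and choroid plexus) and the share called lower in 3 (neuronal, mural and ependymal). The lower counts were 1 of 13 neuronal markers under library totals alone and 1 of 7 ependymal markers with the length trend removed, and 2 of 8 mural markers in both of these settings. Of all 16730 genes, 1746 were called lower under library totals alone and 2700 with the length trend removed. Against these, the neuronal and ependymal shares just given were smaller, and the mural share was larger in both. Without 24m replicate 1, where 3671 of 16794 genes were called lower, 2 of 7 choroid plexus and 2 of 8 meningeal markers were lower. Of 13 neuronal markers, 3 were called higher and 3 lower (median -0.06), and their summed level was 6880 to 7360 CPM at 6m and 5500 to 6070 CPM at 24m, with Nrgn the highest marker. Of 12 oligodendrocyte markers, 3 were called higher and 0 lower (3550 to 4420 CPM at 6m and 3840 to 4440 CPM at 24m, highest Mbp). Of 7 oligodendrocyte precursor markers, 3 were higher and 1 lower (114 to 143 and 160 to 177 CPM, highest Sox10), and of 11 microglial markers 2 were higher and 0 lower (634 to 702 and 594 to 862 CPM). Of 11 endothelial markers, 2 were higher and 2 lower (162 to 202 and 124 to 178 CPM, highest Slc2a1), and of 8 mural markers 1 was higher and 3 lower (193 to 255 and 142 to 179 CPM, highest Vtn). Of 7 ependymal markers, 0 were higher and 5 lower (45.0 to 55.1 and 26.8 to 42.0 CPM, highest Foxj1), of 7 choroid plexus markers 3 were higher and 0 lower (1780 to 3210 and 828 to 2260 CPM, highest Ttr), and of 8 meningeal markers 1 was higher and 1 lower (2420 to 3210 and 1290 to 2060 CPM, highest Ptgds). No tested marker had a mean of 0 at either age. The summed level of the 10 astrocyte genes, most of it from Aldoc and Glul, was 3710 to 4510 CPM at 6m and 4070 to 4440 CPM at 24m. These ranges overlap after TMM scaling, whereas the shares of raw counts given above do not. Of the 13 mitochondrially encoded genes, 10 were called lower and 0 higher (median -1.08), and 0 were called lower with the length trend removed.

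How the authors' counting treated strand and reads that map to several places was not given in the sources used here. Each of the 10 genes except Aldoc overlaps at least 1 annotated gene on the other strand, and Slc1a3, Glul and Aldh1l1 also overlap genes on their own strand, so some reads of these genes may have been assigned elsewhere.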

How the data were processed

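Poly(A) RNA from 8 male mouse brain hemispheres was sequenced from directional libraries in paired-end mode. Per the labels and methods, the authors trimmed reads (Trim Galore 0.4.11), aligned them to GRCm39 (HISAT2 2.1.0) and counted them with featureCounts. The deposited table holds raw counts per gene, with no replicates pooled. Here 22281 of 22430 genes matched a later GENCODE annotation of the same assembly, and unmatched genes held 0.312% of counts.

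A gene was tested where 4 or more libraries had over 5 counts, which left 16730 genes. The edgeR package (4.0.16, under R 4.3.3) gave quasi-likelihood tests with TMM factors, age as the only term and Benjamini-Hochberg adjustment over these genes. Calls used the thresholds of the study, an adjusted p up to 0.05 with an absolute log2 fold change from 0.58 upwards. CPM were scaled with TMM factors. Standard errors were derived from the fold change and its F statistic. Ratios were compared by exact permutation over 70 assignments. Replicates were separate animals, and replicate libraries differed by more than sampling noise. Precision was limited by 4 libraries per age.

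The genes and lists were chosen with earlier results of these data known. Named from each pathway list were the called genes with the 2 largest and the 2 smallest log2 fold changes among genes of at least 1 CPM, with Gfap and Vim. Items that this rule or the marker lists would name but that the text omits are not reported here. Alternatives (24) covered scaling, DESeq2 1.42.0, limma-voom 3.58.1, filters, thresholds, each library left out, a replicate block, thinning, and length and GC trends. The fit was tested on simulated data. Promoter windows were taken from RefSeq tables of GRCm38.p6, with none for Sox9.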

Additional observations from a re-analysis of the deposited data

How the results depend on the processing

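Over 24 alternatives, and over the 10 genes, their counts and median, the total of calls and the 3 ratios, 338 values kept direction and call (counts: stayed within 1.5 times), 18 lost a call, 6 gained one, 6 changed sign and 2 counts or medians moved further. The number of the 10 genes called higher ran from 4 to 7. Slc1a2, Slc1a3, Gja1 and Slc4a4 were called higher under all 24. With library totals alone the median log2FC of the 10 genes was 0.92 and Gjb6 was at 0.18. Gjb6 was also above 0 with the length trend removed (0.0884) and with that trend and the replicate block together (0.0707), and ran from -0.138 (without 24m replicate 4) to 0.0554 (without 24m replicate 1) with 1 library left out, in no case called, and Aldoc was at 0.14 with DESeq2 on quantile-normalized counts. A fold threshold of 1 left 3492 of 7295 calls over all genes, by construction. With the length trend removed the Gja1 to Gjb6 difference was 0.93 (adjusted p = 0.0429, exact permutation) and the Slc1a2 to Glul difference was -0.037 (exact permutation, adjusted p = 0.8). The cause of these shifts was not tested.

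With 1 library left out in turn, the Slc1a2 to Slc1a3 difference ran from -0.97 to -0.66 and its call was lost when any 1 of the 4 aged libraries was left out (adjusted p up to 0.0857, exact permutation). The Gja1 to Gjb6 difference ran from 1.37 to 1.64, losing its call without 24m replicates 2, 3 or 4, and the Slc1a2 to Glul difference from 0.41 to 0.78, called without 24m replicate 1 (adjusted p = 0.0429). In the first 2 ratios the ages did not overlap with all 8 libraries, so leaving 1 out could not make them overlap. The smallest p of a permutation of 3 against 4 libraries is 0.0286. With any 1 young library left out, both ratios kept an adjusted p of 0.0429 (exact permutation).

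Replicate numbers did not pair the samples: deviations of same-numbered libraries correlated at 0.367, 0.246, 0.17 and -0.51 for numbers 1 to 4, and not every library correlated best with its own number. With the replicate block 6 of the 10 genes were called higher and 7242 genes in all. The ratio differences were then -0.81 (Slc1a2 to Slc1a3) and 1.5 (Gja1 to Gjb6), each with an adjusted p of 0.188 by exact sign flips, and 4 pairs are too few for that test to pass.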

Other observations

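Among the further astrocyte markers, some members chosen after their values were seen have transport roles close to those of Slc1a2 and Slc1a3. Slc6a11, the GABA transporter GAT3 of astrocytes, stood at 81.6 ± 10.3 CPM at 6m and 186.3 ± 24.3 CPM at 24m (log2FC 1.19 ± 0.12, adjusted p = 7.28e-05, edgeR), and the urea transporter Slc14a1 at 3.49 ± 0.352 and 8.26 ± 0.952 CPM (1.24 ± 0.13, adjusted p = 7.73e-05). In the other direction, Slc7a10, a transporter of small neutral amino acids, stood at 96.8 ± 9.47 and 59.4 ± 8.65 CPM (-0.71 ± 0.12, adjusted p = 0.000754). The neurotensin receptor Ntsr2 stood at 285.1 ± 27.1 and 172.5 ± 17.8 CPM (-0.72 ± 0.10, adjusted p = 0.000324).

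Among the 24m libraries, replicate 1 had the lowest level in 8 of the 10 homeostatic astrocyte genes and replicate 4 the highest in 8. The order was the opposite in the remaining 2, Aldoc and Aldh1l1, whose levels were highest in replicate 1 and lowest in replicate 4. In all 6 genes called higher at 24m, replicate 1 was the lowest and replicate 4 the highest of the aged libraries. Slc4a4 spanned 18.0 to 66.5 CPM and Slc1a2 51.4 to 141.5 CPM over these libraries. No library of either age stood apart from its group by Dixon's test in any of the 10 genes.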
